A study of Mus musculus with 24 samples.

Results

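Surface RNA of murine splenic B cells was compared with that of T and NK cells in 9 libraries, 3 of each cell type, out of 24 libraries in the series. All 9 are labelled as wild-type C57BL/6 spleen, although a treatment note shared by the murine samples names bone marrow as the source. The cells were purified with commercial isolation kits, and the T cell kit was one for CD8 T cells. Living cells were fixed, held on Concanavalin A beads and annealed with T7N9, a random-priming oligo that carries a T7 promoter, so that RNA reachable on the outside of intact cells was copied in place by T7 RNA polymerase and sequenced (the AMOUR method). The study holds that no method to date, AMOUR included, wholly excludes carry-over of RNA from inside cells. Total RNA of these purified cells is not among the 24 libraries, so display on the surface and expression cannot be told apart. The comparison asked which RNAs set the B cell surface apart from that of other lymphocytes. A transcript was a member when it exceeded 10 TPM (transcript abundance scaled to the same total in every library) in at least 1 of the 9 libraries, which 1353 of 102168 listed transcripts did. Of these, 247 passed only through a B library, 355 only through a T or NK library and 751 through both. The members closest to the threshold were the Map4k1 transcript, at 10.02 TPM in its highest library, just inside, and the Emp3 transcript, at 9.996 TPM, just outside.

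B cells are the lymphocytes that carry membrane immunoglobulin as their antigen receptor, signal through its CD79 partners, and present captured antigen to helper T cells on MHC class II molecules. T cells recognise antigen through the T cell receptor, and NK cells kill through perforin and granzymes under the control of activating and inhibitory receptors. Small nucleolar RNAs (snoRNAs) normally guide chemical modification of ribosomal RNA in the nucleolus, with C/D box members guiding methylation and H/ACA members guiding pseudouridylation. Many of them are cut from introns of host genes that encode ribosomal proteins or are themselves non-coding.

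The sequences below belong to small RNAs on which the comparison turned. The first 4 are C/D box snoRNAs that were far lower in B libraries, with the C box (TGATGA) and the D box (CTGA) in capitals, and the last is an H/ACA-type snoRNA from the same host gene as Snord110, which did not differ, with the ACA near its end in capitals. All were read from GENCODE M21 (GRCm38) by transcript identifier, and the snoRNA and Y RNA entries there are earlier versions than those in the deposited tables.
Snord80 (chr1:161037601-161037681, plus strand, inside Gas5): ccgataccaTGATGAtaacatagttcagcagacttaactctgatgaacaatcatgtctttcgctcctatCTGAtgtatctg
Snord47 (chr1:161038082-161038158, plus strand, inside Gas5): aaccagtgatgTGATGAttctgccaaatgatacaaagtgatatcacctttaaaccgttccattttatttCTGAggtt
Gm22455 (chr9:64177123-64177193, plus strand, inside Rpl4): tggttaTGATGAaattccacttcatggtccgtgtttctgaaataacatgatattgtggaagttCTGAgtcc
Snord110 (chr2:130275506-130275573, plus strand, inside Nop56): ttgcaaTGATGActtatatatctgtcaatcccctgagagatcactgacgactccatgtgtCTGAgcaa
Gm24451 (chr2:130276237-130276369, plus strand, inside Nop56): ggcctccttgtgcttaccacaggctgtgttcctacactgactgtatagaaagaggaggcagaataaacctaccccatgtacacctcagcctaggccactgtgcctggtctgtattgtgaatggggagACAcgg
The mitochondrial tRNAs for aspartate and isoleucine, encoded on the plus strand of the mitochondrial genome, were the tRNAs with the largest differences, and Rny3, a Y RNA, was the lower of the 2 Y RNAs tested. These are printed whole, with no part in capitals.
mt-Td-201 (chrM:6942-7011, plus strand): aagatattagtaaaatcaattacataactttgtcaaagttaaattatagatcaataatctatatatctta
mt-Ti-201 (chrM:3706-3774, plus strand): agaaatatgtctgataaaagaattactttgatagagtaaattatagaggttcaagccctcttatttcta
Rny3 (chr6:47781624-47781725, plus strand): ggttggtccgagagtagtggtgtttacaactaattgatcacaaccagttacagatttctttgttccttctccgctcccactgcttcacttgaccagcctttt
The mature miRNAs of 3 hairpins described below, as RefSeq lists them on GRCm38.p6, have their seed (bases 2 to 8) in capitals. The deposited rows are hairpins, so the arms cannot be told apart, and no seed is shared among the 5.
mmu-miR-139-5p: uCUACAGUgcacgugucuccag
mmu-miR-139-3p: uGGAGACGcggcccuguuggag
mmu-miR-330-5p: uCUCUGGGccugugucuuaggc
mmu-miR-330-3p: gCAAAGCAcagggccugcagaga
mmu-miR-5120: uUUGGGGCuguggugccaccagc

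TPM fixes each library to the same total, so read depth is unknown, and between 45448 and 58900 transcripts were above 0 per library. B replicate 1 stood apart from the other B libraries. On the log2 scale its correlation with replicates 2 and 3 was 0.932 and 0.912 over the tested transcripts, against 0.977 between those 2, and it carried more mitochondrial RNA and more of 3 same-valued short transcripts (31.5% of TPM, against 14.2% and 10.6%). Ribosomal RNA took 42.8% to 64.2% of TPM in B, 43.7% to 53.6% in T and 36.0% to 40.0% in NK libraries. After removal of rRNA and of those 3 transcripts, 25.2% to 27.3% of TPM was left in B libraries, 35.4% to 42.5% in T and 32.6% to 34.5% in NK, a mean scale difference of 0.48 on the log2 scale. Rescaling to what was left moved the median over all tested transcripts from -0.02 to 0.35, and transcripts close to 0 in some libraries moved by other amounts or away from B. As these are bulk libraries, fewer cells with a transcript and less of it per cell cannot be told apart. The study calls its replicates biological, but neither it nor the labels say that each came from a separate animal, and the p-values measure the spread between these samples.

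Against the mean of T and NK, 340 of the 1353 transcripts were higher in B (25.1%) and 367 were lower (27.1%) at an adjusted p below 0.05 (limma on log2(TPM + 1), Benjamini-Hochberg over all tested). Against T alone, 404 were higher (29.9%) and 332 lower (24.5%), and against NK alone 261 were higher (19.3%) and 330 lower (24.4%). These comparisons share the B libraries, and the number higher than in NK dropped to 140 without B replicate 2 and to 154 without B replicate 3. In 224 of the called transcripts all 3 B libraries lay above the 6 others (16.6% of those tested), and in 220 all 3 lay below (16.3%). Summed by gene name, 409 of 1522 genes were higher (26.9%) and 400 were lower (26.3%), with a median difference of 0.09 over all genes. Below, differences are log2(TPM + 1) of B minus the mean of T and NK, ± SE, which understates the change of low transcripts.

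Transcripts of the B cell receptor complex separated B from both other cell types. Of 15 listed genes of the receptor and its co-receptors, 13 were tested and 13 were higher in B, but all 13 passed the filter only through B libraries, so that a higher level in B was set by the filter. Cd79a, the signalling chain of the receptor, was at 113, 85.1 and 65.6 TPM in B, at 0.140, 0.124 and 0.267 TPM in T, and at 3.91, 5.03 and 3.21 TPM in NK libraries. The difference was 5.16 ± 0.30 (adjusted p = 1.34e-07, limma). Its partner Cd79b was at 103, 81.8 and 67.5 TPM in B, at 0.228 to 0.606 TPM in T and at 2.30 to 4.88 TPM in NK (5.02 ± 0.31). All 3 B libraries lay far above the others for both chains, and NK lay above T.

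The co-receptor genes followed the same order. Cr2, the complement receptor CD21, differed by 3.26 ± 0.35 and Ms4a1, which encodes CD20, by 3.61 ± 0.31. Fcer2a, the low-affinity IgE receptor CD23, was at 22.2, 21.0 and 14.96 TPM in B and at most 0.439 TPM in each T and NK library (4.05 ± 0.28). The inhibitory receptors Cd22 (3.95 ± 0.30) and Siglecg (3.63 ± 0.30) were higher as well, and the smallest difference of the list was that of Cd81, a tetraspanin, at 1.99 ± 0.31.

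Signalling genes were more mixed. Of 15 tested, 13 were higher in B and none lower, and 11 of the 15 had passed the filter only through B. Tnfrsf13c, the BAFF receptor that B cells need for survival, was at 25.5, 21.5 and 21.99 TPM in B and at most 0.943 TPM in any T or NK library (4.19 ± 0.29). Cxcr5, the chemokine receptor for follicles, was at 16.9, 18.05 and 14.3 TPM in B against at most 0.935 TPM elsewhere (3.44 ± 0.28). The kinases Blk (3.26 ± 0.29), Syk (2.75 ± 0.30) and Lyn (2.28 ± 0.29) and the adaptor Blnk (2.75 ± 0.30) were higher, and Syk and Lyn in NK lay well above T. Ccr7, the receptor for lymph node homing, was not called (-0.37 ± 0.38) and turned to 0.06 after rescaling without rRNA, and Cxcr4 was not called (0.99 ± 0.46).

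Among B lineage transcription factors, 10 of 12 tested were higher and none lower, and 8 of the 12 had passed the filter only through B. Spib was at 26.2, 27.5 and 23.8 TPM in B, at most 0.148 TPM in T and 0.966 to 1.49 TPM in NK (4.11 ± 0.27). Pax5, which holds B cell identity, was at 25.2, 25.5 and 19.2 TPM in B, at most 0.531 TPM in T and 0.980 to 2.10 TPM in NK (3.81 ± 0.30). Irf8 was shared with NK libraries: it was at 17.4, 14.6 and 13.7 TPM in B, 0.137 to 0.157 TPM in T and 6.98, 17.8 and 14.1 TPM in NK, and so the B and NK libraries overlapped although the difference from the mean was called (2.06 ± 0.32). Ikzf1, expressed across lymphocytes, was not called (0.12 ± 0.42), nor was Klf2 (0.92 ± 0.38).

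**Figure D1:**
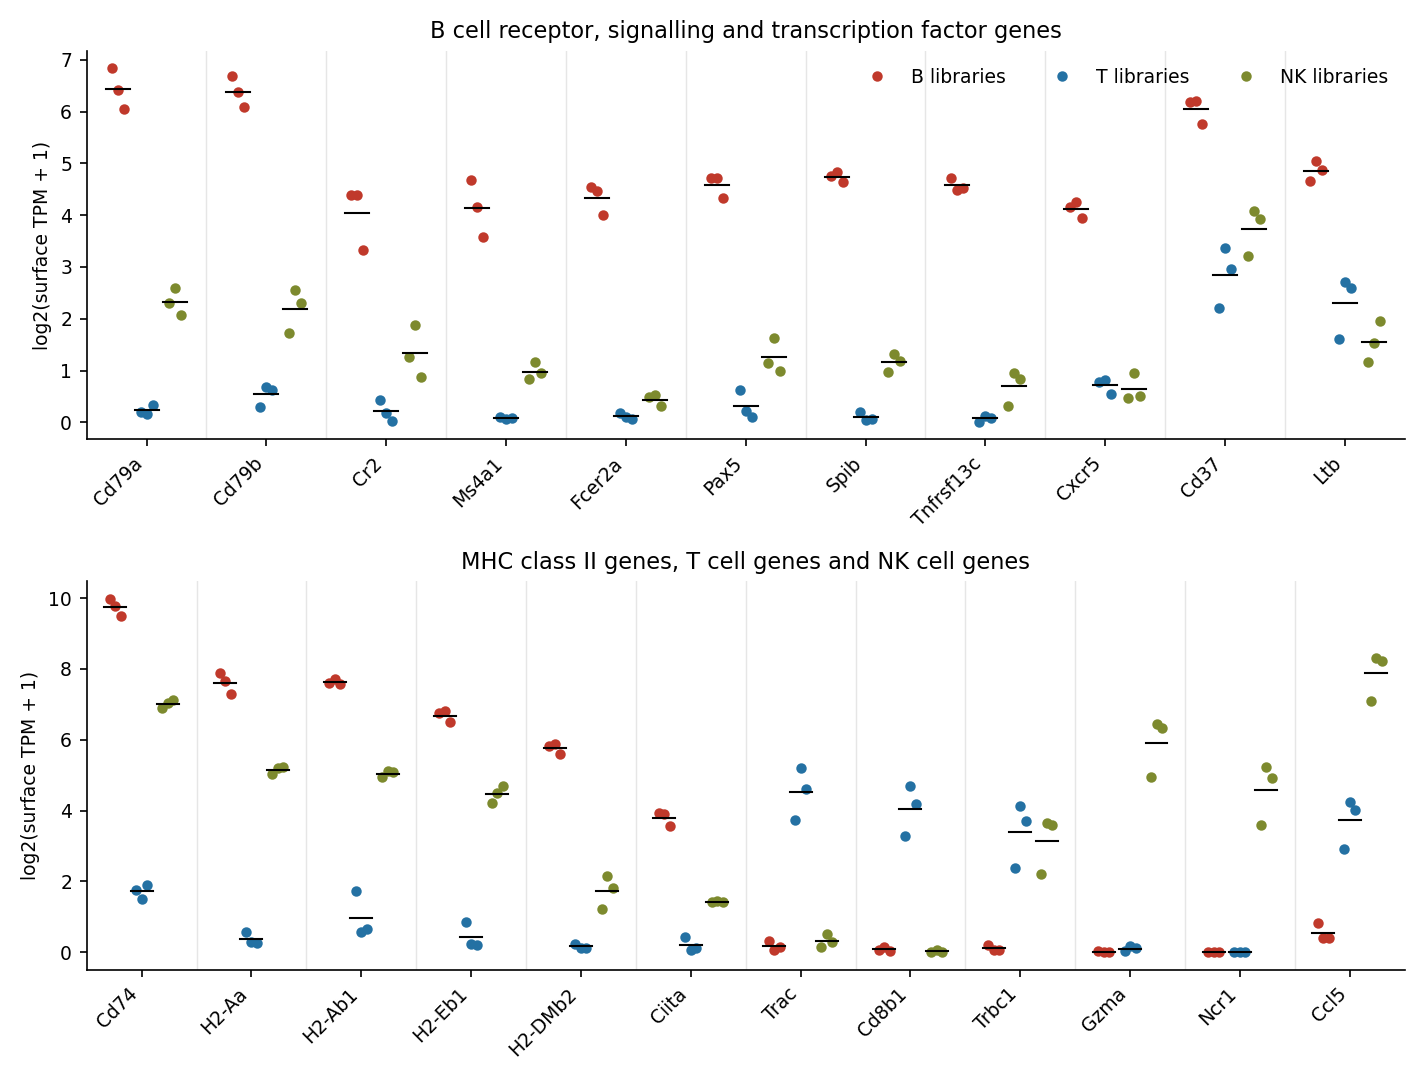
Gene-level surface RNA as log2(TPM + 1) in each library (points, 3 per cell type) with the mean of the 3 (black bar), for B cell genes (top) and for MHC class II, T cell and NK cell genes (bottom). B libraries lay above all others for each B cell and MHC class II gene shown, NK libraries lay above T for the MHC class II genes, and T and NK genes were close to 0 in B.

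MHC class II formed the other large B cell group, with 11 of 11 tested genes higher, 7 of which had passed the filter only through B. Cd74, the invariant chain that guards the peptide groove, was at 1010, 880 and 728 TPM in B, at 2.36, 1.81 and 2.72 TPM in T and at 118, 130 and 140 TPM in NK libraries (5.39 ± 0.28). H2-Aa was at 236, 201.8 and 156 TPM in B, at 0.469, 0.219 and 0.188 TPM in T and at 31.5, 35.8 and 36.5 TPM in NK (4.86 ± 0.29), and H2-Ab1, which encodes its partner chain, differed by 4.63 ± 0.33. These genes thus ran in the order B, NK, T with no overlap. The peptide-loading factors H2-DMa (3.32 ± 0.30), H2-DMb2 (4.82 ± 0.30), H2-Oa (3.62 ± 0.28) and H2-Ob (3.78 ± 0.28) were higher, as was Ciita, the transcriptional master regulator of the class (2.99 ± 0.28). Summed over the 13 listed genes, the class reached 1333 to 1747 TPM in B, 8.12 to 9.44 TPM in T and 213 to 256 TPM in NK libraries.

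MHC class I was not a B cell feature of that kind. Of 10 tested genes of class I and its peptide loading, 4 were higher and 2 lower, against 5 and 0 after rescaling without rRNA. Without B replicate 1 only 2 were higher, without B replicate 2 or 3 none was lower, and without T replicate 2 or 3 or NK replicate 2 or 3 only 1 was lower. Tapbp, or tapasin, was at 14.9, 19.0 and 19.0 TPM in B, 2.04 to 5.12 TPM in T and 5.59 to 11.5 TPM in NK (1.47 ± 0.34). B2m, the class I light chain, was at 73.6, 33.2 and 22.5 TPM in B against 55.7 to 115 TPM in T and 95.8 to 124 TPM in NK, with B replicate 1 inside the T range (-1.25 ± 0.39), and its call was lost after rescaling without rRNA (-0.79, adjusted p = 0.122, limma) and without B replicate 2 or 3.

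Immunoglobulin transcripts did not all run with B cells. Of 10 tested constant region and J chain genes, 5 were higher in B and 4 lower, or 2 lower without B replicate 2, T replicate 3 or NK replicate 3. Of the 10, 2 had passed the filter only through B, 4 only through T or NK and 4 through both. Ighd, the IgD heavy chain of naive B cells, was at 64.6, 56.1 and 41.0 TPM in B and at 0.234 to 1.51 TPM across the T and NK libraries (5.03 ± 0.29). Ighd had passed the filter only through B libraries, so that a higher level in B was set by the filter. The lambda light chain genes Iglc2 (3.09 ± 0.43) and Iglc3 (3.02 ± 0.44) were higher, whereas Igkc, the kappa constant region, was at 409, 223 and 158 TPM in B, 18.5, 39.2 and 149 TPM in T and 232, 308 and 413 TPM in NK, so that B and NK overlapped and it was not called (0.99 ± 0.55). Class-switched chains were lower in B than in NK. Of 11 constant region transcripts, 3 were lower than in NK and none was lower than in T. Of these 11, 3 had passed the filter only through B and 3 only through T or NK. Ighg2b had passed the filter only through NK libraries, so that a lower level in B was set by the filter. It was at 2.98, 0.535 and 0.916 TPM in B and at 16.2, 36.3 and 27.0 TPM in NK, with T at 0.634 to 7.08 TPM (-2.24 ± 0.51). Ighg2c was likewise lower (-2.03 ± 0.44), and Igha (-1.79 ± 0.64) and Jchain (-1.28 ± 0.50), which link to the secretion of polymeric antibody, were called lower but lost the call without single libraries, B replicate 2 and T replicate 3 among them.

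The 2 tested transcripts of Ighm, the IgM heavy chain gene on chr12 (minus strand), split between the cell types, which was noticed after the values were seen. In GENCODE M21 their first 3 exons are the same. Ighm-201 has a longer last exon (chr12:113420741-113421261), while Ighm-202 ends that exon earlier and adds 2 more (chr12:113418953-113419068 and chr12:113418558-113418834), and it is the downstream exons of this gene that encode the membrane anchor of IgM. Ighm-202 was at 320, 296 and 270 TPM in B, at 1.89, 5.41 and 6.50 TPM in T and at 10.5, 16.8 and 14.4 TPM in NK (5.08 ± 0.36). Ighm-201 was at 81.6, 34.3 and 34.3 TPM in B, 14.6, 30.4 and 121 TPM in T and 80.0, 194 and 239 TPM in NK, and did not pass the test (-0.74 ± 0.60). Ighm-202 made up 79.7%, 89.6% and 88.7% of both transcripts in B, 5.11% to 15.1% in T and 5.66% to 11.6% in NK libraries, without overlap. The log2 ratio of the transcripts differed by 6.05 between B and the other libraries, given with no test because the split was chosen for its values. Summed over both transcripts, the gene showed a much smaller difference of 2.00 ± 0.54.

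**Figure D2:**
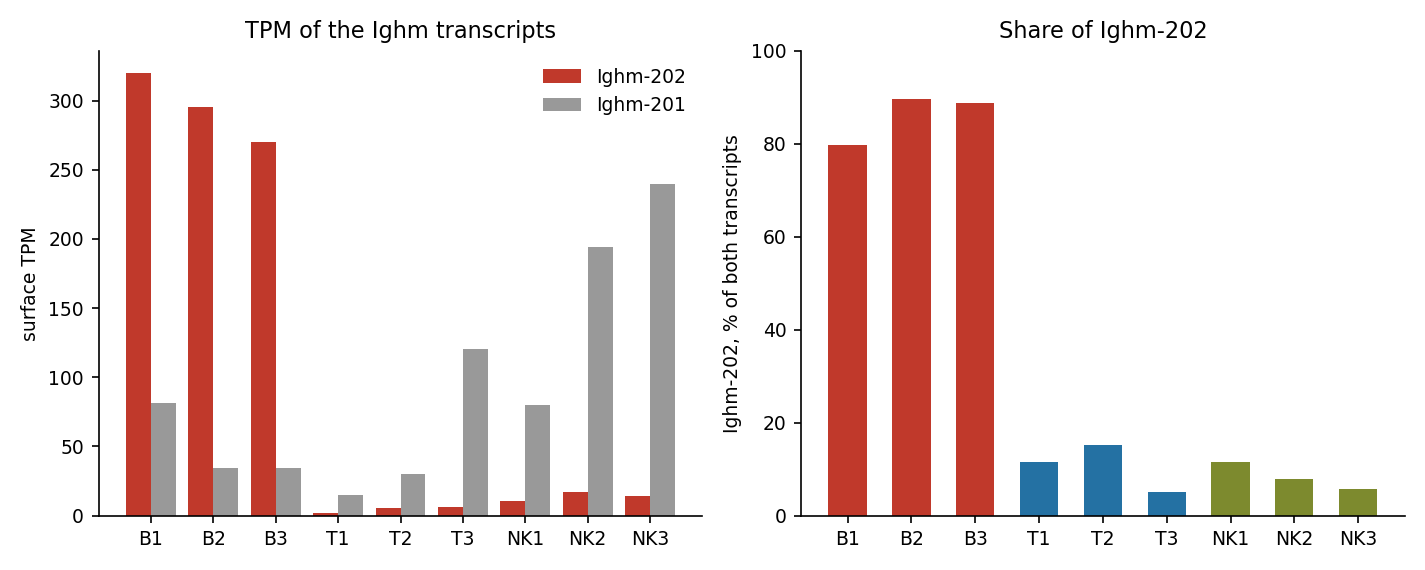
Surface TPM of both Ighm transcripts in each library (left) and Ighm-202 as a percentage of their sum (right), with bars starting at 0. Ighm-202 was 79.7% to 89.6% of the sum in B libraries and at most 15.1% in the others.

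Joining segments behaved like the kappa chain. Of 9 tested immunoglobulin J transcripts, 5 were higher in B and none lower, but against NK alone none of them was called in either direction, while 7 were higher than in T. Only 3 were higher without B replicate 1 or 2 or without T replicate 1 or 2. For example, Ighj3 was at 333, 297 and 369 TPM in B, 8.82 to 48.5 TPM in T and 131 to 310 TPM in NK. Of 42 V transcripts, 18 were higher in B, a count that dropped to 4 of 32 without B replicate 1. Of the 42, 14 had passed the filter only through B, 11 only through T or NK and 17 through both. Of 8 listed plasma cell genes only Mzb1 was tested, and it was higher in B (2.69 ± 0.32). It had passed the filter only through B, so that a higher level in B was set by the filter. Without B replicate 1 it was not tested.

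Genes of the other lineages were near 0 on B cells. Of 24 listed T cell and 24 listed NK cell genes, 9 and 16 were tested. All of these passed the filter only through T or NK libraries, so that a lower level in B was set by the filter. Over the whole lists, T and NK genes summed to 2.50 to 4.57 TPM and 3.38 to 3.98 TPM in B libraries, against 97.3 to 297 TPM of T genes in T libraries and 303 to 785 TPM of NK genes in NK libraries. Trac, the T cell receptor alpha constant region, was at 0.231, 0.0354 and 0.0974 TPM in B and at 12.2, 35.7 and 23.5 TPM in T (-2.25 ± 0.35). Ccl5, a chemokine of cytotoxic cells, was at 0.753, 0.317 and 0.327 TPM in B, 6.58 to 17.9 TPM in T and 137 to 314 TPM in NK (-5.26 ± 0.39). Of 35 T cell receptor J transcripts, which had likewise passed only through T or NK, 31 were lower in B (19 without T replicate 2), and Trbj1-1 was listed at 0 in every B library and at 6.74 to 61.9 TPM in the others.

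Conversely, B cell transcripts were not absent from NK libraries. Genes of the B cell receptor list summed to 22.3 to 36.1 TPM in NK libraries, 2.57 to 3.28 TPM in T and 279 to 441 TPM in B, that is, at a level between those of B and T. NK libraries also held more neutrophil gene RNA (35.0 to 49.0 TPM, against at most 0.5998 TPM in B and 1.28 TPM in T) and more erythroid gene RNA (74.5 to 125 TPM, against 1.20 to 16.6 TPM in B), although no neutrophil gene passed the filter. Erythroid Car1 (-3.68 ± 0.42) and Car2 (-1.997 ± 0.35) were lower in B, whereas Hbb-bs was not called (-0.78 ± 0.58). All 4 tested erythroid genes had passed the filter only through T or NK libraries, so that a lower level in B was set by the filter. Monocyte genes summed to 20.9 to 30.8 TPM in NK, against 9.27 to 13.0 TPM in B and 7.19 to 17.8 TPM in T. Platelet genes summed to 7.79 to 15.8 TPM in NK, against 1.26 to 1.51 TPM in B and 0.232 to 1.08 TPM in T. The part of such cells in the differences from NK was not tested.

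The RNA types moved apart from one another. Protein-coding transcripts were higher in B in 176 cases and lower in 59 of 485, with a median of 0.63, while snoRNAs were higher in 1 case and lower in 141 of 196, with a median of -1.92. Of these snoRNAs, 115 had passed the filter in both B and the other libraries, 79 only through T or NK and 2 only through B. Of the protein-coding transcripts, 247 had passed through both, 104 only through T or NK and 134 only through B. The median over all types was -0.02, with 25.1% of transcripts higher and 27.1% lower. Retained-intron transcripts (29 higher and 11 lower of 49, median 1.45) leaned towards B, with 16 higher of 42 without B replicate 2. So did transcripts annotated for nonsense-mediated decay (12 higher and none lower of 19, median 1.56). The filter set part of this lean. Of the 49 retained-intron transcripts, 20 had passed only through B and 9 only through T or NK. Of the 19 for nonsense-mediated decay, 7 had passed only through B and 0 only through T or NK. Mitochondrial tRNAs (none higher and 18 lower of 22, median -1.94) leaned away from B. The small nuclear RNAs were lower in 38 and higher in 8 of 164 cases, both below the shares over all types. These 164 held only 92 distinct sets of values, so that same-valued transcripts were counted more than once. The median of the small nuclear RNAs, -0.48, rose to 0.00 after rescaling without rRNA. Their number higher was 17 without B replicate 1 and between 2 and 5 without any other single library, and 22 were lower without B replicate 3. The miRNA hairpins were lower in 34 and higher in 14 of 103 cases, with 7 higher without B replicate 2 and 9 without B replicate 3. Of the 103, 44 had passed the filter only through T or NK, 15 only through B and 44 through both. The filter thus set part of these counts as well.

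**Figure D3:**
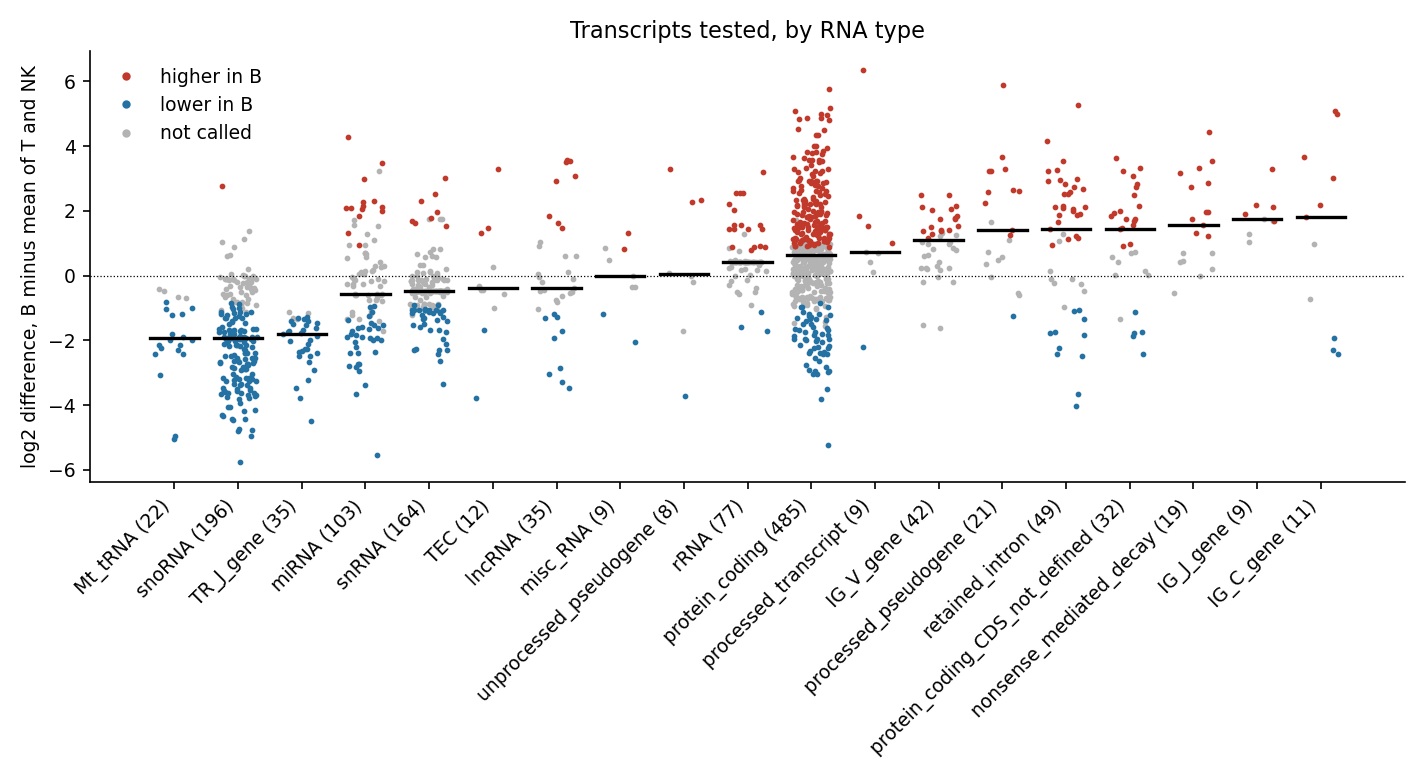
Log2 difference of each tested transcript, B minus the mean of T and NK (y axis, log2(TPM + 1) scale), by annotated RNA type with the number tested in brackets; black bars are medians, red and blue points passed the test. snoRNAs and mitochondrial tRNAs lay mostly below 0 and protein-coding transcripts above, with medians of -1.92, -1.94 and 0.63.

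As shares of all TPM the types could not be separated at this number of libraries. snoRNAs took 1.05%, 1.63% and 1.70% of TPM in B, 7.60%, 6.41% and 5.02% in T, and 3.36%, 2.76% and 2.39% in NK, so that B lay below all others (p = 0.0238, two-sided exact permutation test; adjusted p = 0.226 over 19 types). Mitochondrial tRNAs took 2.75%, 1.59% and 1.28% in B against 3.84% to 7.43% elsewhere (p = 0.0119, exact permutation test, the smallest possible; adjusted p = 0.226). None of the 19 types passed after adjustment. The miRNA share of 14.9% to 34.5% in B was almost wholly the 3 same-valued transcripts and Mir6236.

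Of the protein-coding transcripts, part of the lean towards B was shared by the whole class. Protein-coding RNA made up 2.88%, 2.34% and 2.00% of TPM in B, 0.645% to 1.52% in T and 1.49% to 2.96% in NK libraries, with B and NK overlapping. Expressed as a share of protein-coding TPM, 165 of 485 transcripts were higher in B (34.0%) and 145 were lower (29.9%), the median falling to 0.08. Of the 176 that were higher in TPM, 160 were also higher as a share, and 57 of the 59 lower ones were lower as a share.

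Ly6d and Fcmr followed the receptor and MHC class II genes among the protein-coding transcripts. Ly6d, a surface marker of the B lineage, was at 72.4, 64.8 and 57.9 TPM in B, 0.137 to 0.609 TPM in T and 1.74 to 4.25 TPM in NK (Ly6d-201, 4.82 ± 0.33). Fcmr, the Fc receptor for IgM, was at 45.9, 33.8 and 28.9 TPM in B and at most 1.13 TPM elsewhere (Fcmr-201, 4.80 ± 0.33). Several others were single transcript forms of common genes. Rpl10-211, one form of a ribosomal protein mRNA, was at 25.2, 35.8 and 26.8 TPM in B against at most 0.642 TPM (4.51 ± 0.34), and Actg1-203, a form of gamma actin, was at 21.2, 29.3 and 25.8 TPM against at most 0.977 TPM (4.52 ± 0.34). The pseudogene transcript Gm9843 (30.8, 80.0 and 77.7 TPM in B) was listed at 0 in every T and NK library, and Gm10275-205 (60.3, 145 and 147 TPM in B) in all but NK replicate 3, at 5.28 TPM. Reads can be shared between forms of one gene and between near-identical copies, so these estimates are uncertain. Ly6d-201, Fcmr-201, Rpl10-211, Actg1-203, Gm9843 and Gm10275-205 had all passed the filter only through B libraries, so that a higher level in B was set by the filter.

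At the level of genes the ribosomal proteins moved less. Of 78 tested cytosolic ribosomal protein genes, a list taken by name after the values were seen, 25 were higher in B and none lower, with a median of 0.75 against 0.09 over all genes. Over all genes tested, 26.9% were higher in B and 26.3% lower. Rpsa was at 144, 158 and 159 TPM in B, 22.8 to 53.4 TPM in T and 30.1 to 86.9 TPM in NK, without overlap (1.76 ± 0.39). Without B replicate 1, 20 were higher and 1 lower, and after rescaling without rRNA 51 were higher. Of 23 abundant housekeeping mRNAs, 8 were higher and none lower (median 0.76), or 4 higher without B replicate 2, among them Actb (1.33 ± 0.39) and Coro1a (1.45 ± 0.37). Ly6e, a GPI-anchored protein induced by interferon, was at 174, 135 and 106 TPM in B and 11.9 to 58.6 TPM elsewhere (2.19 ± 0.38).

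Some retained-intron forms went with their genes. H2-Ob-204 was at 13.6, 18.5 and 16.1 TPM in B and at most 1.02 TPM elsewhere (3.55 ± 0.31), and Rpsa-202 was at 39.3, 39.9 and 33.9 TPM against 0.585 to 16.5 TPM (3.27 ± 0.43). Others were lower while their genes were not called. Rplp2-206 was at 1.71, 1.28 and 0.492 TPM in B, 34.5 to 60.1 TPM in T and 15.5 to 29.2 TPM in NK (-4.03 ± 0.36), although the gene Rplp2 did not differ (0.17, adjusted p = 0.668, limma). Rpl4-203, which spans Snord16a, was lower (-2.49 ± 0.43) with Rpl4 at -0.21 (adjusted p = 0.651, limma). Ms4a4b-206, from a T and NK cell membrane gene, was lower together with that gene (-3.65 ± 0.42). H2-Ob-204 had passed the filter only through B libraries, and Rplp2-206, Rpl4-203 and Ms4a4b-206 only through T or NK libraries. For each of them the direction was set by the filter.

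The snoRNAs in B libraries were lower by up to 5.76 on the log2 scale. Snord58b, from an intron of Rpl17, was at 1.26, 0.800 and 1.04 TPM in B, at 196, 161 and 113 TPM in T and at 75.2, 84.9 and 72.4 TPM in NK (-5.76 ± 0.30). Snord58b had passed the filter only through T and NK libraries, so that a lower level in B was set by the filter. Gm22455, from Rpl4, was at 18.7, 17.2 and 5.10 TPM in B, 446 to 804 TPM in T and 258 to 288 TPM in NK (-4.95 ± 0.39). T libraries were highest, NK libraries lay between, and B libraries were lowest for both. Against T 151 of the 196 were lower, and against NK 104 were. The only snoRNA transcript higher in B was one form of Snora16a, at 16.8, 11.5 and 38.7 TPM in B, at most 0.606 TPM in NK and overlapping with T (2.76 ± 0.87), but the gene summed over its listed forms was not called (-0.59 ± 0.45). Without B replicate 1, 130 were lower and 5 higher.

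The snoRNAs were also grouped by their boxes. TGATGA started within the first 20 bases after the start in 79 of the 178 with a sequence, and CTGA within the last 20 bases in 128, searched on the transcript strand. Of 77 with both, 69 were lower in B, with a median of -2.64. Of 41 with ACA 3 bases from the end and without that pair, 14 were lower and 1 was higher (median -0.58). Of the 60 with neither, 50 were lower (median -2.01). Length moved with these groups, with medians of 77, 134 and 85 bases, and the part of length was not tested. Of 112 snoRNAs under 100 bases, 102 were lower (median -2.64), and of 55 between 100 and 150 bases, 29 were (median -0.96). The filter set part of the box and length counts, as 79 of the 196 tested snoRNAs had passed only through T or NK. Over all types, 177 of 240 transcripts under 100 bases were lower in B (median -1.97). Of 686 of at least 300 bases, 85 were lower (median 0.72). The 177 include those 102 snoRNAs and 18 of 22 mitochondrial tRNAs. Of 54 miRNA hairpins under 100 bases, 23 were lower and 9 higher (median -1.15). Of 9 hairpins between 100 and 150 bases, 3 were lower and 1 higher (median 0.18). Within Nop56, a core protein gene of C/D particles, Snord110 was at 6.68, 1.65 and 8.23 TPM in B against 12.9 to 225 TPM elsewhere (-3.56 ± 0.56), while Gm24451 was at 46.0, 80.4 and 227 TPM in B and 56.4 to 144 TPM elsewhere and was not called (-0.02 ± 0.44). Snord110 had passed the filter only through T and NK libraries, so that a lower level in B was set by the filter.

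Host genes did not fall with their snoRNAs. Of 196 snoRNAs, 174 lay in a gene on the same strand, and 105 of them in 52 host genes that were tested. The median difference was -1.96 for these snoRNAs and 0.63 for the host genes, of which 16 were higher in B and 2 lower. Among all tested genes the shares were 26.9% higher and 26.3% lower. Of 80 lower snoRNAs with a tested host, 24 had a host that was higher, 47 one that was not called and 9 one that was lower. These 80 include snoRNAs that had passed the filter only through T or NK, Snord47, Snord58b and Snord110 among them. A lower level of those in B was set by the filter. Gas5, a non-coding host, was at 16.7, 27.4 and 31.6 TPM in B, 3.55 to 10.1 TPM in T and 7.21 to 18.5 TPM in NK (1.37 ± 0.39; the call was lost without B replicate 2 or 3). All 8 of its tested snoRNAs were lower, by 1.30 to 4.17 on the log2 scale in size. Snord47 was at 5.06, 4.19 and 7.58 TPM in B against 45.6 to 151 TPM (-3.62 ± 0.36), and the form of Snord80 printed above was at 11.7, 0 and 13.1 TPM against 58.5 to 216 TPM (-4.17 ± 0.70). The 0 in B replicate 2 belonged to that form alone, since Snord80 summed over its listed forms was at 11.7, 16.8 and 13.1 TPM in B (-2.78 ± 0.32). Snhg1, another non-coding host, was lower itself (-2.17 ± 0.32), and its retained-intron form Snhg1-213 made up most of the gene. The snoRNAs of both Gas5 and Snhg1 lie in annotated exons of the host on the same strand, so reads of host and snoRNA may not be told apart.

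**Figure D4:**
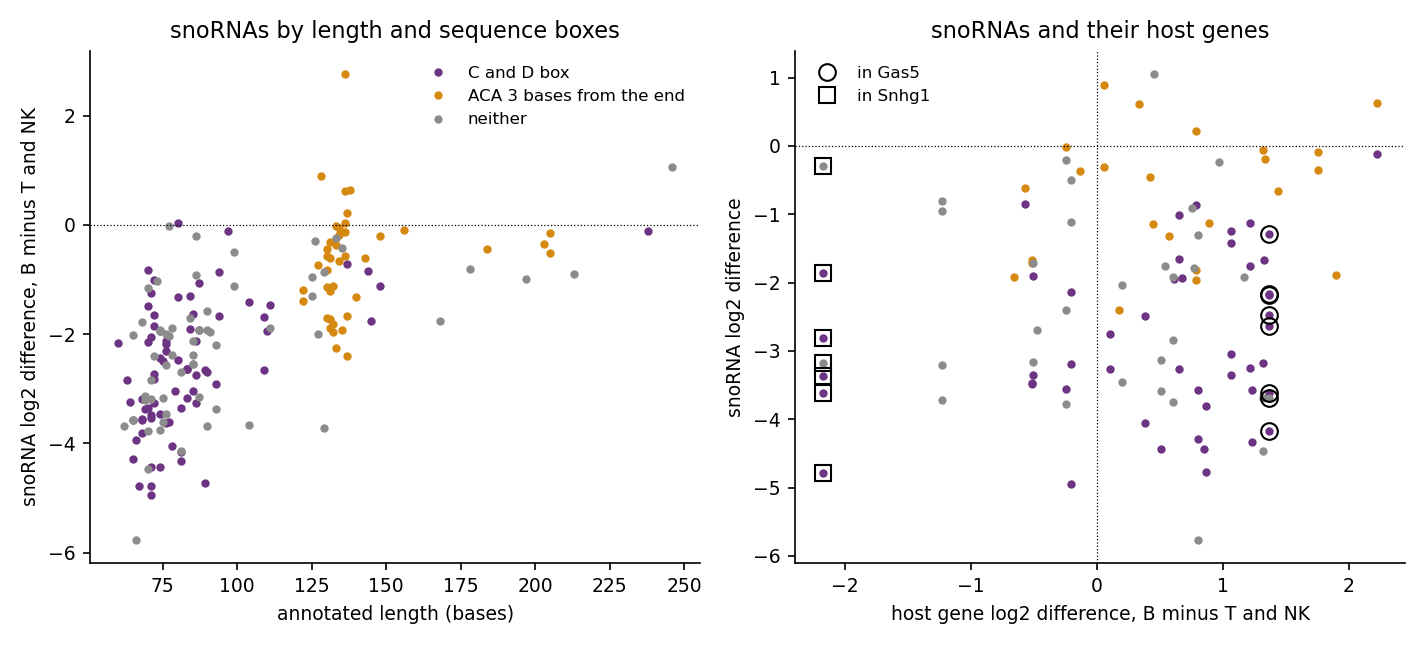
Log2 difference of each tested snoRNA, B minus the mean of T and NK, against its annotated length in bases (left) and against the difference of its host gene (right). C/D box snoRNAs (purple) were short and mostly below -1, those ending in ACA (orange) were longer and nearer 0, and the 8 snoRNAs of Gas5 (circles) lay below 0 while Gas5 lay at 1.37 and Snhg1 (squares) at -2.17.

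Mitochondrial RNA was low on B cells, and B replicate 1 was the exception. mt-Td-201 was at 85.3, 23.5 and 11.3 TPM in B and at 515 to 1258 TPM elsewhere (-5.05 ± 0.52). mt-Ti-201 was at 161, 129 and 44.8 TPM in B against 1254 to 4322 TPM (-4.94 ± 0.44). No B library overlapped with T or NK for these, yet other mitochondrial tRNAs hardly moved: mt-Tk-201, for lysine, was at 1940, 1052 and 1115 TPM in B and 930 to 2247 TPM elsewhere (-0.42 ± 0.32). All 12 tested mitochondrial mRNAs were lower (median -2.30), 10 of them after rescaling without rRNA, but here B replicate 1 lay in the range of the other cells. mt-Co2, a cytochrome c oxidase subunit, was at 68.7, 4.75 and 6.46 TPM in B, 41.9, 134 and 38.3 TPM in T and 181 to 278 TPM in NK (-3.04 ± 0.69). Without B replicate 1 the median of the 12 was -3.15, and all 12 were lower. Without B replicate 2 only 6 of the 12 were called lower, and without B replicate 3 only 3 were, with medians of -1.95 and -1.61.

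RNA polymerase III products split. Rny3 was at 355, 357 and 275 TPM in B and at 902 to 2203 TPM elsewhere (-2.06 ± 0.32), and Rny1 was at 601, 586 and 388 TPM against 649 to 1606 TPM (-1.17 ± 0.29). Both Y RNAs are partners of the Ro protein, and no B library overlapped with the others, though Rny1 was at -0.22 and not called after quantile normalization. Rpph1, the RNA of RNase P that trims tRNA precursors, was at 471, 472 and 438 TPM in B and 162 to 325 TPM elsewhere (1.11 ± 0.29). The vault RNA Vaultrc5 was called at 0.83 ± 0.30, a call that was lost without B replicate 2 or 3, T replicate 1, or NK replicate 1 or 2. The other 4 of the 8 tested, 7SK, the signal recognition particle RNAs and the RNase MRP RNA among them, were not called.

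Among spliceosomal and related small nuclear RNAs, U7 and U4atac went in opposite directions. Rnu7, the U7 RNA that processes histone mRNA ends, was at 580, 566 and 468 TPM in B and at 4258 to 8730 TPM elsewhere (-3.33 ± 0.26). It lies in an annotated exon of Grcc10, a gene that was lower as well (-1.27, adjusted p = 0.00359, limma). Rnu4atac, the U4atac RNA of the minor spliceosome, was at 499, 902 and 610 TPM in B, 305 to 423 TPM in T and 110 to 139 TPM in NK (1.62 ± 0.28). Scarna2, which guides modification of spliceosomal RNAs, was called lower (-1.22 ± 0.32). It was at 1.95, 1.59 and 2.225 TPM in B, 3.72 to 4.16 TPM in T and 6.23 to 11.5 TPM in NK. Scarna2 had passed the filter only through NK replicate 1, so that a lower level in B was set by the filter. Without that library it was not tested. Against T alone it was not called (-0.78, adjusted p = 0.0918, limma). U7 thus lay below T and NK in every B library, while U4atac lay above both.

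**Figure D5:**
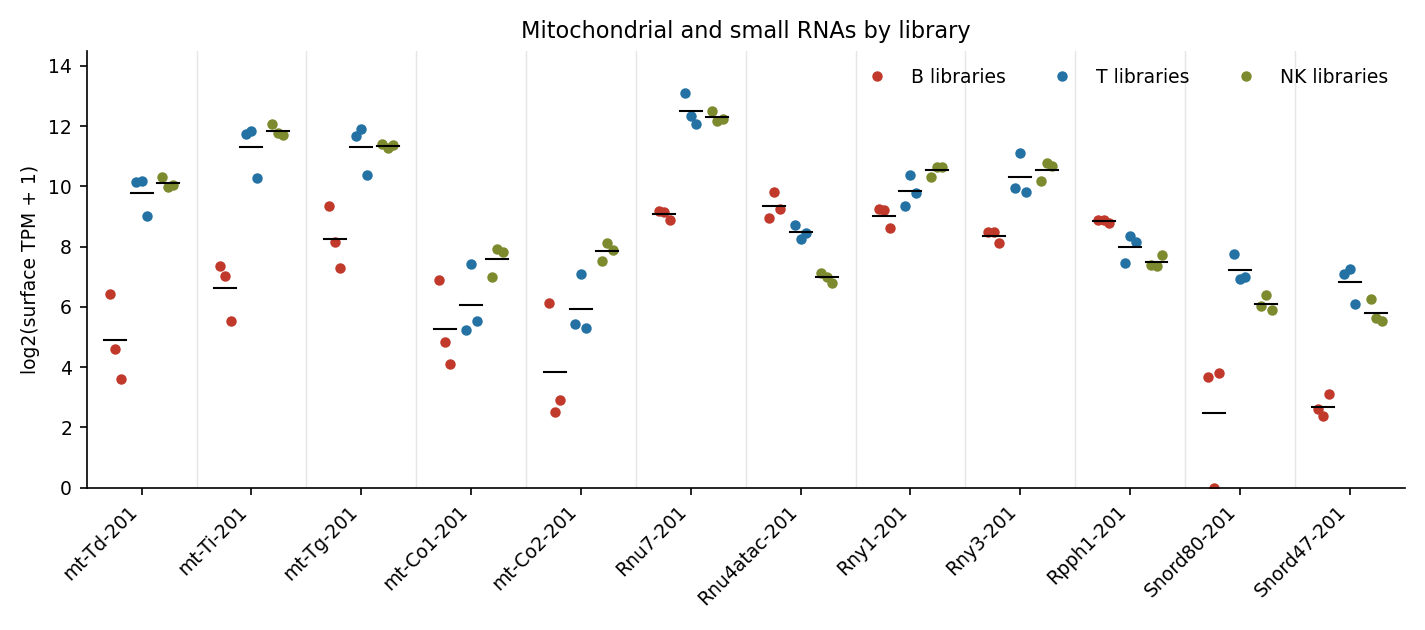
Surface RNA of mitochondrial and small RNA transcripts as log2(TPM + 1) in each library (points) with the mean of the 3 (black bar). B libraries lay below the others for mt-Td, mt-Ti, mt-Tg, Rnu7, both Y RNAs and both Gas5 snoRNAs (one form of Snord80), above them for Rnu4atac and Rpph1, and B replicate 1 overlapped with T for the cytochrome c oxidase mRNAs.

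Of the miRNA hairpins, Mir139 was at 4.86, 3.29 and 12.3 TPM in B and at 48.4 to 145 TPM elsewhere (-3.65 ± 0.42). Mir330 was at 1.48, 4.39 and 0 TPM in B against 9.94 to 30.0 TPM (-2.95 ± 0.48). Mir142, a hairpin of blood cells in general, was at 142, 300 and 331 TPM in B against 522 to 1075 TPM (-1.45 ± 0.34). Snord43, annotated with this type although named as a snoRNA, was lower too (-3.38 ± 0.36). Mir330 and Snord43 had both passed the filter only through T or NK libraries, so that a lower level in B was set by the filter. On the other side, Mir5120 was at 20.1, 46.6 and 25.2 TPM in B, listed at 0 in T and at 1.21 to 1.52 TPM in NK (4.29 ± 0.35). It lies in an intron of Pax5 on the same strand, a gene that was higher in B (3.81). Reads of unspliced Pax5 RNA and of this hairpin may not be told apart. Mir5107 was at 34.7, 53.4 and 25.9 TPM in B and at most 8.97 TPM elsewhere (3.48 ± 0.57). Its hairpin overlaps an exon of Cd74 on the same strand, so reads of Cd74 mRNA and of the hairpin cannot be told apart. Mir5120 and Mir5107 had both passed the filter only through B libraries, so that a higher level in B was set by the filter.

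Of 35 long non-coding RNAs, 8 were higher (5 without B replicate 2) and 9 lower. These counts were close to the shares over all transcripts, 25.1% higher and 27.1% lower. Of the 35, 8 had passed the filter only through B and 14 only through T or NK. Malat1-204 was at 60.2, 57.2 and 40.7 TPM in B, at most 3.21 TPM in T and 6.08 to 15.04 TPM in NK (3.54 ± 0.47), whereas Malat1 as a gene was not called (0.58, adjusted p = 0.226, limma). Gas5-247 was at 3.77, 15.1 and 21.5 TPM in B and at most 0.133 TPM elsewhere (3.55 ± 0.46). AW112010-206 was listed at 0 in all B libraries, at 2.19 to 4.63 TPM in T and at 18.01 to 34.3 TPM in NK. B930036N10Rik-201 was lower (-2.86 ± 0.56), as was Gm24871, a small nuclear RNA that lies in its exon (-2.64 ± 0.47).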

How the data were processed

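Per the labels and the study's methods, the authors trimmed reads, removed duplicates and estimated transcript levels with kallisto. The deposited values are TPM, one table per cell type, and the labels name cutadapt, STAR, featureCounts, kallisto and mm10. The murine transcript set and its version are not given in the sources used here, nor is strand. Kallisto's TPM divides by an effective length, which for transcripts near the fragment length depends on each library's fragments.

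Here the tables were joined by transcript, filtered at more than 10 TPM in at least 1 of 9 libraries and tested as log2(TPM + 1) with limma 3.58.1 (mean-variance trend, R 4.3.3), B against the mean of T and NK, against T and against NK, with all 9 libraries in each fit. The same was done per gene name and for shares of protein-coding TPM. Type shares were compared by two-sided exact permutation over 84 choices of 3 libraries. The fit was tested on simulated data for the first comparison over 1353 transcripts: of transcripts changed by 1, 2 and 3 log2 units it called 17 of 66, 57 of 67 and 63 of 67, and 6 of 1153 unchanged ones. Positions came from GENCODE M21 for 1080 of the tested transcripts. TPM keeps no depth, so no counting interval is given.

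Named transcripts were called ones whose 3 B libraries lay outside the range of the 6 others: the 15 highest and 10 lowest, the 3 most extreme in each direction within each of 10 RNA types, and members of the gene lists. Those outside this rule (Ighm-201, Ighj3-201, mt-Tk-201, Mir142-201, Snhg1-213, Snora16a-201, snoRNAs of Gas5 and Nop56, ribosomal protein genes) were chosen after their values were seen. Members and lists were chosen with earlier results of these data known. A few genes and transcripts that met the rule are not reported here.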

Additional observations from a re-analysis of the deposited data

Results flagged for a closer look

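Tyrobp, the DAP12 signalling adaptor of NK and myeloid receptors, lay between the other cell types. It was at 2.23, 2.80 and 2.29 TPM in B libraries (mean 2.44), at 0.161, 0.350 and 0.277 TPM in T and at 20.5, 50.2 and 42.3 TPM in NK, so every B library was above every T library and below every NK library. The difference between these directions was not tested.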

How the results depend on the processing

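Counts of calls followed the filter and the scaling. Above 50 TPM, 92 transcripts were higher and 185 lower (against T 112 and 177, against NK 94 and 176, as protein-coding share 35 and 42, per gene 94 and 184), since fewer were tested. With no filter 2390 were higher and 555 lower. Rescaled without rRNA, with the 10 TPM filter on the larger rescaled values, 3926 transcripts and 4576 genes were tested. Against both, T and NK, 1836, 2201 and 969 transcripts were higher and 501, 372 and 468 lower, and 2088 genes were higher and 517 lower. Of the original members other than rRNA and the 3 same-valued transcripts, 434 were higher and 295 lower. Leaving out single libraries, the transcripts higher than in NK ranged from 140 to 264, at 140 without B replicate 2 and 154 without B replicate 3.

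Type shares that passed no test changed sign: rescaling gave lncRNA 0.35, misc_RNA 0.13 and snRNA 0.080, and leaving out single libraries gave ranges of -0.30 to 0.30 for miRNA, -0.13 to 0.18 for TEC and -0.10 to 0.25 for nonsense-mediated decay. Ccr7 turned to 0.061 on rescaling and Ikzf1 ranged without single libraries from -0.13 to 0.27. The replicate numbers did not pair B with the other libraries: same-numbered deviations correlated at -0.35, -0.22 and -0.075 between B and T and at -0.21, -0.035 and -0.14 between B and NK. Same-numbered T and NK libraries did deviate together, at 0.51, 0.26 and 0.47, against -0.47 to 0.087 for other T and NK pairs. With a replicate block, 337 transcripts were higher and 361 lower, mt-Co1 lost its call and Klf2 gained one. The log2 ratio of the Ighm transcripts stayed between 5.84 and 6.40 without single libraries, an alternative chosen after seeing the data. The murine annotation versions differ from the reference, and TPM leaves the counting error unknown.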
